A study of Mus musculus with 24 samples.

Results

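Ischemic gastrocnemius muscle of diabetic and control mice was compared 7 days after ligation of the femoral artery. The comparison took the 6 libraries labelled control and the 6 labelled type 2 diabetic of this muscle, 12 of the 24 libraries of the series, and every gene of the table, of which 12382 of 24016 passed the filter on low values. All mice carried the C57BL/6 strain background, and all had 1 hindlimb artery tied off, so the control group also had ischemic muscle. The labels do not name the substrain, the way diabetes was produced, the age of the mice, or whether libraries of a group came from separate animals, so each p-value reflects only how far these samples spread. The other 12 libraries, from the normoxic adductor of the upper leg, entered the fits to share an estimate of the spread.

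Ligation of the femoral artery sends blood through collateral arteries of the thigh and leaves the calf short of oxygen. In the gastrocnemius, a calf muscle of mostly fast fibres, damaged fibres are then cleared by macrophages and rebuilt from satellite cells under the transcription factor myogenin, while capillaries sprout into the tissue. Type 2 diabetes alters lipid handling in muscle and is known to slow recovery from limb ischemia.

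Per the labels, poly(A) RNA was sequenced, and gene levels were deposited as RPKM, which divides reads by exon length in kilobases and by the library total. Depth ran from 7.13 to 15.6 M reads over the 12 gastrocnemius libraries. The libraries fell into technical sets that the labels do not name, with control 1 to 3 and diabetic 1 to 4 in the first set and control 4 to 6 and diabetic 5 and 6 in the second. The first principal component of the 12 libraries held 58.2% of the variance and separated these sets. Gapdh, a glycolytic enzyme, had 677 to 1757 RPKM in the first set and 0.556 to 9.80 RPKM in the second. Markers of skeletal muscle were high in all 12 libraries, with the muscle creatine kinase gene Ckm between 1417 and 7971 RPKM, and only 4 of 19 markers of T, B and NK cells passed the filter on low values. The sex-linked genes split each group into 3 and 3 libraries.

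Control 3 and diabetic 2 stood apart from the other 10 libraries on the second component, which held 21.6% of the variance. Their scores were 68.97 and 67.47, and the next highest, that of diabetic 6, was 13.93. Both are in the first set, 1 in each group, and they resembled each other rather than their groups. Mybpc2, a myosin-binding protein of fast fibres, had 765 RPKM in control 3, and diabetic 2 had 871 RPKM. In the other control libraries it had 64.2 to 143 RPKM and in the other diabetic libraries 82.7 to 287 RPKM. Actn3, the alpha-actinin of fast fibres, had 1563 and 2025 RPKM in this pair and 355 to 815 RPKM elsewhere.

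Genes of repair ran the other way in the same 2 libraries. Myog, which encodes myogenin, had 37.8 RPKM in control 3 and 46.2 in diabetic 2, against 130 to 276 RPKM in the other 10. Cd68, a macrophage marker, had 36.8 and 48 RPKM against 94.2 to 159 RPKM, and Trem2, a receptor of phagocytic macrophages, had 14.7 and 23.5 RPKM against 50.9 to 91.7 RPKM. In bulk tissue, fewer cells of a type and less RNA per cell cannot be told apart. For some genes and lists, log2 differences are therefore given with and without these 2 libraries. For others they are given only with them or only without them.

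**Figure D1:**
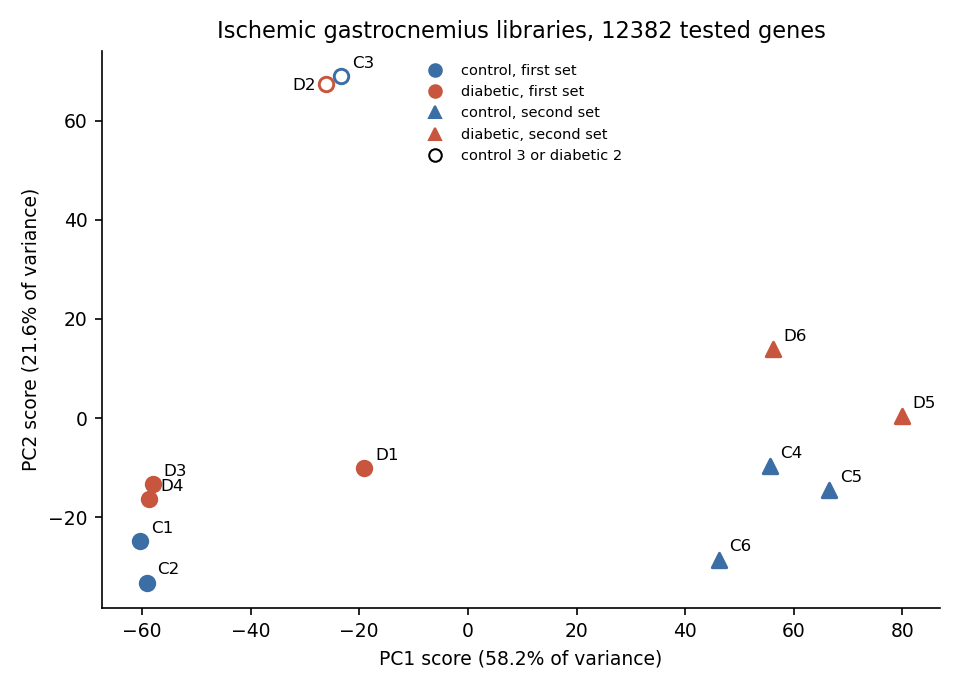
Principal component scores of the 12 gastrocnemius libraries over 12382 genes, with PC1 on the horizontal axis and PC2 on the vertical axis. Colour gives the group, shape the set, and open symbols control 3 (C3) and diabetic 2 (D2), which lie near 68.97 and 67.47 on PC2 while no other library exceeds 13.93.

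**Figure D2:**
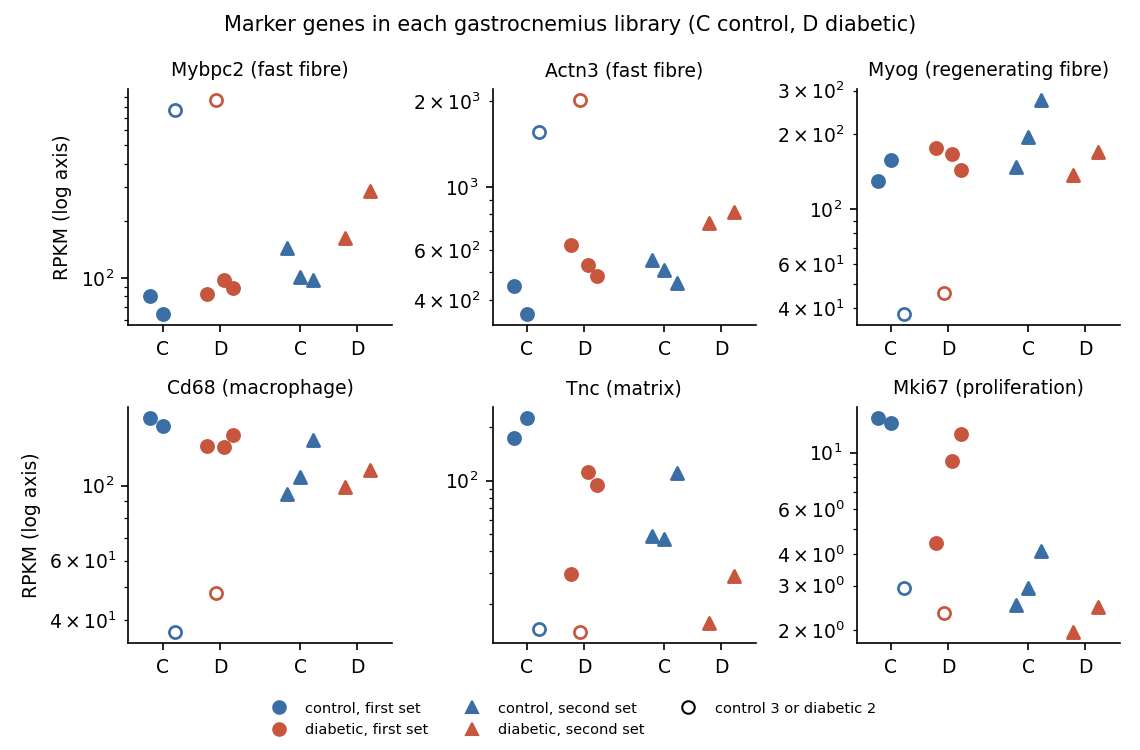
RPKM on a log axis of 6 marker genes, 1 point for each gastrocnemius library, control (C) and diabetic (D) side by side within the first set (circles) and the second (triangles). The open symbols of control 3 and diabetic 2 are highest for the fast-fibre genes and lowest for Myog and Cd68.

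Nnt was the 1 gene that passed the test over all 12 libraries. It encodes the mitochondrial enzyme that passes electrons from NADH to NADP+ to make NADPH, and it rose in diabetic muscle. The control libraries had 8.08, 8.50, 7.99, 7.22, 4.72 and 8.52 RPKM, and the diabetic libraries 12.8, 31.6, 21.8, 22.5, 13.8 and 23.2 RPKM. Every diabetic library was above every control library, and diabetic 2 was the highest of all. The limma log2 difference on values with 0.5 added was 1.38 ± 0.23 (standard error), with an adjusted p of 0.036, and 0.00808% of tested genes were called.

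The value of Nnt was as large within the sets, 1.32 ± 0.31 in the first and 1.37 ± 0.31 in the second, but neither passed alone. With a term for the set in the model its adjusted p was 0.056, and without control 3 and diabetic 2 it was 0.10. With both changes together it was 0.034, and leaving out 1 library at a time from the 12 gave 0.012 to 0.16. C57BL/6 substrains are known to carry different alleles of Nnt. The deposited transcript, NR_003544, lies on chromosome 13 from 120124334 to 120197945 on the minus strand in mm9, and 47.8% of its 31-base words also occur in another gene, so its reads may be shared.

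The genes next in order of p did not pass, and 4 genes were higher and 4 lower in every diabetic library than in every control library, 0.0323% of tested genes each way. Casp4, an inflammatory caspase that senses bacterial lipopolysaccharide, was one of them. It ran from 1.4 to 3.76 RPKM with a median of 2.87 in control muscle and from 0.514 to 1.16 RPKM with a median of 0.971 in diabetic muscle. Its log2 difference was -1.23 ± 0.23 (limma adjusted p = 0.10), -1.22 in the first set and -1.27 in the second. The lowest control value came from control 3 and the lowest diabetic value from diabetic 2.

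Apoc1, an apolipoprotein of macrophages and liver, ran from 1.23 to 7.43 RPKM with a median of 3.74 in control muscle. Diabetic libraries ran from 8.01 to 23.3 RPKM with a median of 17.0. The groups did not overlap, though control 2 and diabetic 4 were close at 7.43 and 8.01 RPKM. The log2 difference was 1.95 ± 0.43 (limma adjusted p = 0.35), with 2.08 and 1.92 within the sets. Snapc1, a subunit of the complex that starts small nuclear RNA genes, ran from 3.84 to 5.21 RPKM in control and from 1.56 to 3.64 RPKM in diabetic muscle, a log2 difference of -0.78 ± 0.17 (limma adjusted p = 0.35).

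Over the 12 libraries limma had 40 genes higher and 116 lower at an unadjusted p under 0.05 (0.323% and 0.937% of those tested, 1.26% together), and 36.7% of all tested genes had a positive difference (median -0.06). The first set alone gave 0 calls by limma or voom, with 93 genes at an unadjusted p under 0.05 in limma (0.751%). Without control 3 and diabetic 2, limma called Clec4d alone, lower (0.46% of genes were higher and 1.99% lower at an unadjusted p under 0.05, 2.46% together). The first set without them gave Sqle alone, also lower (3.23% of genes lower at an unadjusted p under 0.05, 4.13% together). These all-gene values are the background for each list described here. The sets and groups are unevenly filled, with 3 control and 4 diabetic libraries in the first and 3 and 2 in the second. With a term for the set, limma made 0 calls (537 genes, 4.34% of those tested, had an unadjusted p under 0.05; 0.921% were higher), and voom called Nnt.

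**Figure D3:**
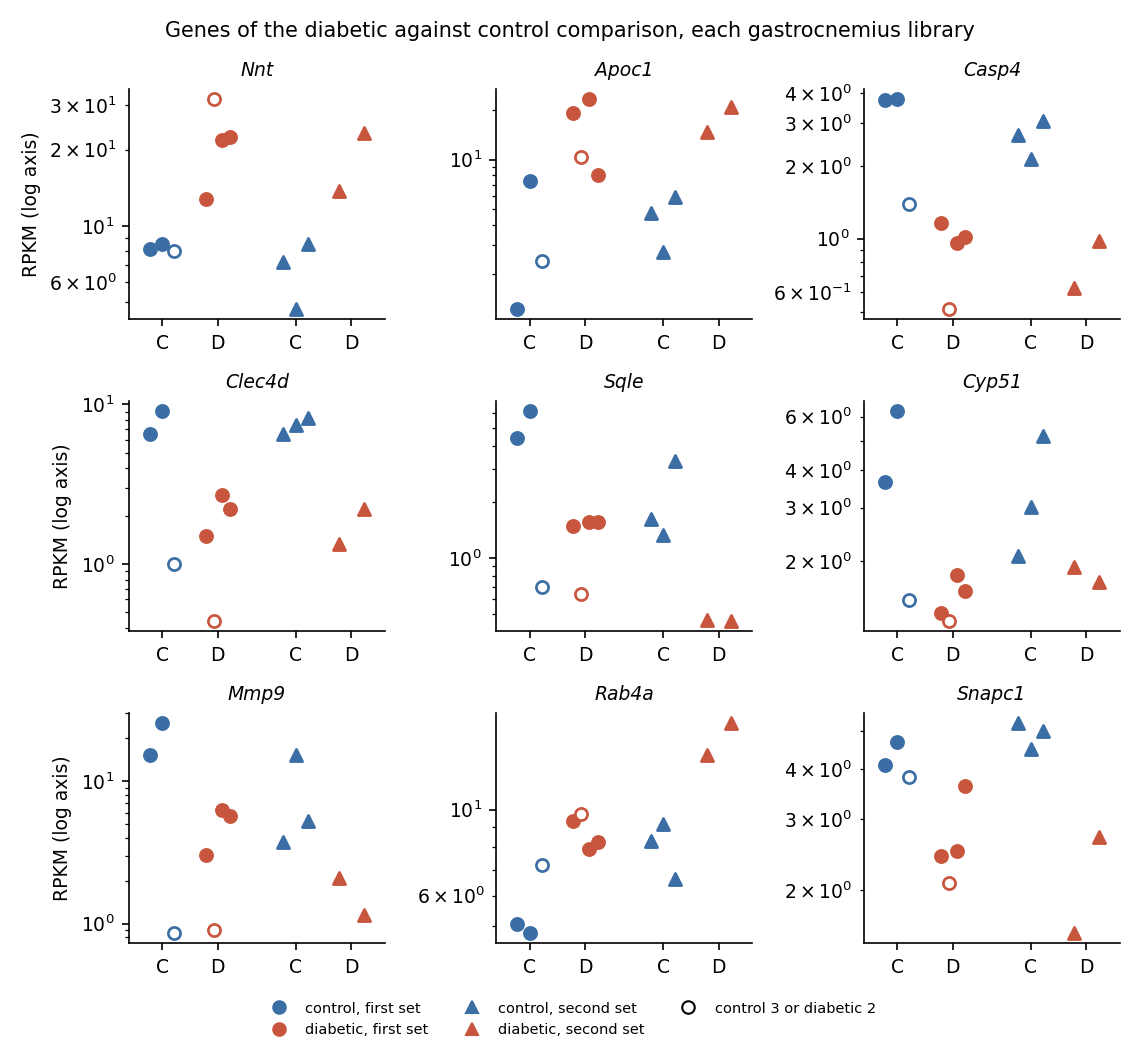
RPKM on a log axis of 9 genes, 1 point for each gastrocnemius library, control (C) and diabetic (D) within the first set (circles) and the second (triangles). For Nnt, Apoc1, Casp4 and Snapc1 the groups do not overlap, while for Clec4d, Sqle, Cyp51 and Mmp9 the open symbol of control 3 lies among or below the diabetic points.

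Within the second set limma called 20 genes higher and 7 lower (0.218% of those tested). At an unadjusted p under 0.05, 2.34% of tested genes were higher there and 9.97% lower. Of the 27 genes, 12 had symbols that start with Rpl or Rps, as 98 of all 12382 tested genes do, a grouping made after the values were seen. Ribosomal protein genes carry these prefixes, but other genes can share them, so neither count is one of ribosomal proteins alone. In 15 of the 27 genes 20% or more of the 31-base words of the transcript also occur in another gene, as in 13.1% of all tested genes. Rps27, a protein of the small ribosomal subunit, had 2.47, 0.684 and 0.563 RPKM in control 4 to 6 and 33.7 and 24.4 RPKM in diabetic 5 and 6. In the first set it ranged from 308 to 545 RPKM (control) and from 307 to 918 RPKM (diabetic). Gapdh showed the same order, with at most 0.802 RPKM in control 4 to 6 and 3.71 and 9.80 RPKM in diabetic 5 and 6. These levels follow the libraries of the second set, and their part in the calls was not tested.

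Among its other genes were Ostn, which encodes the muscle peptide osteocrin, and Rasd2, a small GTPase. Ostn had 0.201, 0.186 and 1.07 RPKM in control 4 to 6 and 7.86 and 29.0 RPKM in diabetic 5 and 6, while control 3 and diabetic 2 both had over 42 RPKM. Dio3, the deiodinase that inactivates thyroid hormone, fell in this set, with 3.42, 3.47 and 4.16 RPKM in control and 1.23 and 1.28 RPKM in diabetic libraries. Mrgprf, a G protein-coupled receptor gene, also fell, by 1.12 on the log2 scale (limma adjusted p = 0.039). The remaining genes called lower included microRNA precursors and predicted transcripts. With the gastrocnemius libraries fitted on their own, the set gave 0 calls and 980 genes at an unadjusted p under 0.05, and without diabetic 5 it gave 7 and without diabetic 6 it gave 91.

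Whether the diabetes effect differed between the sets was tested directly, and limma called 6 genes as higher and 2 as lower in the second set's effect (0.0646% of tested genes, 0.0485% higher and 0.0162% lower), while voom called 0 and had 208 at an unadjusted p under 0.05. In limma 0.517% of genes were higher and 1.58% lower at an unadjusted p under 0.05, 2.1% together. Of the 8 called genes, 7 shared at least 20% of their words with another gene. The difference was 4.02 ± 0.56 for Rps27 and -2.02 ± 0.31 for the predicted gene Gm6787, on the log2 scale. Gm6787 had 1.70 to 2.28 RPKM in control 4 to 6 and at most 0.287 RPKM in every other gastrocnemius library. Without diabetic 5 the test called 0 genes, and without diabetic 6 it called 33.

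**Figure D4:**
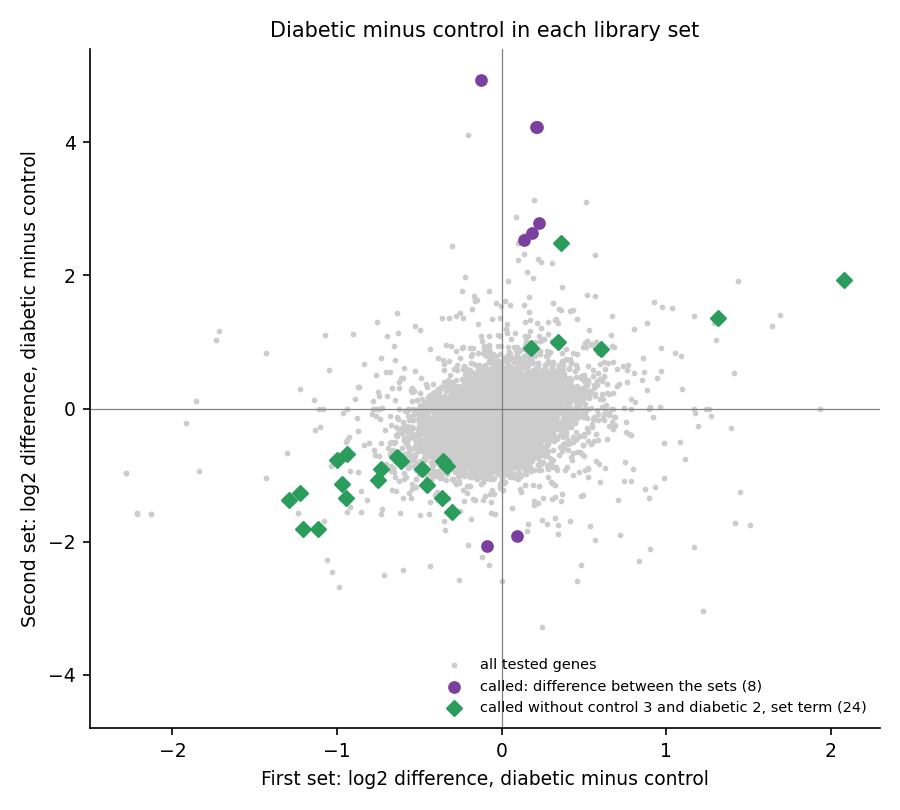
Log2 difference, diabetic minus control, of each tested gene in the first set (horizontal axis) and the second (vertical axis). Purple circles mark the 8 genes whose effect differed between the sets, and green diamonds the 24 genes called with control 3 and diabetic 2 left out and a set term added, which lie in the quadrants where both sets have the same sign.

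With control 3 and diabetic 2 left out and a term for the set added, limma called 6 genes higher and 18 lower (0.194% of tested genes). This combination, called the 10-library set-term fit here, was chosen after the data were seen. Neither change alone gave these calls, since leaving out the 2 libraries called Clec4d alone and the set term over 12 libraries called 0 genes. All 24 had the same sign over the 12 libraries and within both sets. In 23 of them the groups did not overlap in either set once the 2 libraries were left out, as 1.32% of tested genes did upward and 7.16% downward. Both counts come from the libraries that picked these genes and largely follow from that choice, so they give no separate support. Voom called 8 higher and 29 lower, with 22 of the 24 among them (91.7% of the 24 and 59.5% of its own 37). Median-of-ratios scaling, which moved the median of all genes from -0.15 to 0.00, called 13 higher and 6 lower, with 50.0% of all genes positive in place of 27.3%, and with 12 of the 24 among them (50.0% of the 24 and 63.2% of its own 19).

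The number called depended on single libraries. When 1 more of the 10 was left out it ran from 3, without control 2, to 59, without diabetic 4, and Clec4d and Sqle were called in all 10 of these fits. At an unadjusted p under 0.05 the fit had 337 genes higher and 1858 lower, 2.72% and 15.0% of those tested. Markers of mature fibre moved with the groups in these libraries. The summed level of the 15 fast-fibre genes was 16419 and 13567 RPKM in control 1 and 2 and 29235, 19770 and 17370 RPKM in diabetic 1, 3 and 4. In the second set it was 57660, 49354 and 36550 RPKM in control and 65340 and 57875 RPKM in diabetic libraries. In these 10 libraries the sum was higher in diabetic muscle in each set without overlap, though control 4 and diabetic 6 were close. Control 3 and diabetic 2, left out here, had 54095 and 52215 RPKM, and with them the first set overlapped. The part of this sum in the calls was not tested.

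Genes of cholesterol synthesis and uptake had negative values in diabetic muscle, and 4 of them fell in the 10-library set-term fit. The pathway builds cholesterol from acetyl-CoA through mevalonate, squalene and lanosterol, and its genes are turned on together by the transcription factor SREBP2 when cells are short of sterols. Of 24 listed genes 21 were tested, and 20 of these had negative values over the 12 libraries, with a median log2 difference of -0.38 beside -0.06 for all genes. The medians were -0.37 and -0.49 within the sets, and 19 genes were negative in both. No member passed over the 12 libraries, and 5 were lower at an unadjusted p under 0.05, as 0.937% of all tested genes were.

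With the 2 libraries left out and no set term the median was -0.42 beside -0.08 for all genes, with 5 lower at an unadjusted p under 0.05 and 0 called. In the 10-library set-term fit it was -0.65 beside -0.15 for all genes, 15 of the 21 were lower at an unadjusted p under 0.05, and 4 passed, Sqle, Cyp51 and Fdps among them, all lower. Sqle, squalene epoxidase, had 4.38, 6.11 and 0.701 RPKM in control 1 to 3 and 1.49, 0.643, 1.55 and 1.56 RPKM in diabetic 1 to 4. In the second set it had 1.61, 1.33 and 3.33 RPKM in control and 0.465 and 0.459 RPKM in diabetic libraries. Only control 3 reached down to the diabetic values of its set. The log2 difference was -1.0 ± 0.33 over the 12 libraries (limma adjusted p = 1.0), -1.19 ± 0.32 without the 2 libraries (adjusted p = 0.90) and -1.42 ± 0.20 in the 10-library set-term fit (adjusted p = 0.0034).

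Cyp51, lanosterol demethylase, had 3.66, 6.24 and 1.48 RPKM in control 1 to 3 and 1.34, 1.27, 1.79 and 1.59 RPKM in diabetic 1 to 4. Its second-set values were 2.07, 3.01 and 5.16 RPKM in control and 1.91 and 1.71 RPKM in diabetic libraries. Diabetic values were tightly grouped and the controls spread over a wider range. Its log2 difference was -0.85 ± 0.22 over the 12 libraries (limma adjusted p = 0.97), -0.99 ± 0.21 without the 2 libraries (adjusted p = 0.29) and -1.02 ± 0.19 in the 10-library set-term fit (adjusted p = 0.034). Fdps, farnesyl diphosphate synthase, had -0.93 ± 0.18 in the last of these fits (limma adjusted p = 0.045), but 27.9% of its 31-base words occur in another gene.

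Other members did not pass, Msmo1 and Insig1 among them. Msmo1, a sterol methyl oxidase, ran from 2.44 to 7.31 RPKM in control and from 1.65 to 4.47 RPKM in diabetic muscle, with a log2 difference of -0.76 ± 0.24 over the 12 libraries and -0.88 ± 0.19 in the 10-library set-term fit (limma adjusted p = 0.065). Insig1, a sterol-sensing regulator, had -0.45 ± 0.33 and -0.82 ± 0.21, in the same order of fits. In the adductor the list's median was -0.05 with 9 of 21 positive.

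Because these genes had low values together, their promoters were read from RefSeq, in build GRCm38.p6, from 250 bases before to 50 bases after each start. Of the 21 tested members 14 had a promoter in that table, and all 14 held CCAAT or its reverse complement ATTGG, the box bound by NF-Y, as did 41.1% of all gene symbols. The sequence TCACNCCAC, 1 form of the sterol element, was searched on both strands. It was in 0 of the 14 and in 1.44% of all symbols, and Hmgcs1, a listed gene that was not tested, held it. Other forms of the element were not searched, so this count does not show that the promoters lack one. Both motifs were chosen with the direction of the list known, and a match is a description of the letters only. Promoters of 3 members are shown, in lower case with CCAAT or ATTGG in capitals, from chr5:4104648-4104947 on the minus strand (Cyp51), chr8:64733529-64733828 on the minus strand (Msmo1) and chr5:28071162-28071461 on the plus strand (Insig1):
Cyp51: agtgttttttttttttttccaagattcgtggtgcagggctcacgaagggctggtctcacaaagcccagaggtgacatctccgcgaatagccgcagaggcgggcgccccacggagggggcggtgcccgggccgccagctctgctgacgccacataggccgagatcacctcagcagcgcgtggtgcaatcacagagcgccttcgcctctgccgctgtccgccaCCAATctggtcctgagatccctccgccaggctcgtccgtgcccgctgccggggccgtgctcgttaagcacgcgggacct
Msmo1: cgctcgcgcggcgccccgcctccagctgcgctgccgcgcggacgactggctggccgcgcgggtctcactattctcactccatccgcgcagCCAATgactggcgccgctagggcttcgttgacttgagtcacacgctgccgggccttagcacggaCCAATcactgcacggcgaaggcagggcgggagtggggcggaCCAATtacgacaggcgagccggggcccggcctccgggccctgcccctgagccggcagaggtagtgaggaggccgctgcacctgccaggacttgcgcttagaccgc
Insig1: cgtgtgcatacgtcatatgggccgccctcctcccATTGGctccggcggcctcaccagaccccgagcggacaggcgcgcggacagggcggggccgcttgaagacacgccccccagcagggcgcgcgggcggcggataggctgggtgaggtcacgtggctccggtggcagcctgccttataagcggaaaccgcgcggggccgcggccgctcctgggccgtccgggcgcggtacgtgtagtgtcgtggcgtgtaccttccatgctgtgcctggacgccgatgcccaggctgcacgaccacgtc
Cyp51 and Insig1 each hold 1 such box and Msmo1 holds 3.

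Targets of the liver X receptors had high values. These nuclear receptors sense oxidized cholesterol and turn on genes of sterol export and fatty acid synthesis. All 15 tested genes of the list were positive over the 12 libraries, with a median of 0.59 beside -0.06 for all genes, and 7 were higher at an unadjusted p under 0.05, as 0.323% of all tested genes were. The medians were 0.50 and 0.47 within the sets, 0.59 with all 15 positive and 0 called without control 3 and diabetic 2, and 0.45 with 13 positive in the 10-library set-term fit. Apoc1 was the 1 member called in that last fit, at 2.01 ± 0.40 (limma adjusted p = 0.046). In the adductor the list's median was 0.46 with 12 of 15 positive and 1 called.

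Abcg1, which exports cholesterol to high-density lipoprotein, ran from 5.08 to 16.2 RPKM with a median of 7.34 in control muscle and from 12.2 to 36.0 RPKM with a median of 17.1 in diabetic muscle. The control range was widened by control 1, and 4 of 6 diabetic libraries were above it. The log2 difference was 1.28 ± 0.32 (limma adjusted p = 0.66). Scd1, the stearoyl-CoA desaturase, ran from 22.9 to 158 RPKM in control and from 67.3 to 399 RPKM in diabetic muscle, 1.41 ± 0.51. Srebf1, the transcription factor of fatty acid synthesis, had a log2 difference of 0.88 ± 0.33, and Lpl, lipoprotein lipase, 0.59 ± 0.25, and neither passed. The 14 tested adipocyte markers, a source of Scd1 and Lpl, had a median of 0.36 with 13 positive, and their levels summed to 507 to 1904 RPKM in control libraries and 642 to 2224 RPKM in diabetic libraries, highest in control 3 and diabetic 2. Their part in the values of Scd1 and Lpl was not tested.

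Genes of muscle fibres and mitochondria had mostly positive values. Over the 12 libraries, 13 of 15 fast-fibre and 10 of 10 slow-fibre contractile genes were positive, with medians of 0.11 and 0.16, and no member passed or reached an unadjusted p under 0.05. Without control 3 and diabetic 2 the fast-fibre median was 0.16 with 14 positive and 0 at an unadjusted p under 0.05. In the 10-library set-term fit it was 0.50 with all 15 positive and 11 higher at an unadjusted p under 0.05, as 2.72% of all tested genes were. There the slow-fibre median was 0.41 with 3 such genes. Oxidative phosphorylation genes had 24 of 38 positive with a median of 0.04 over the 12 libraries, and 34 of 38 with a median of 0.23 in the 10-library set-term fit.

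Several genes of mature fibre rose in the 10-library set-term fit. Ckmt2, the mitochondrial creatine kinase of muscle, had 46.4, 36.5 and 342 RPKM in control 1 to 3 and 91.5, 332, 66.8 and 61.9 RPKM in diabetic 1 to 4. In the second set it had 205, 199 and 156 RPKM in control and 356 and 384 RPKM in diabetic libraries. Control 3 and diabetic 2 alone exceeded 300 RPKM in the first set. Its log2 difference was 0.37 ± 0.58 over the 12 libraries, 0.45 ± 0.61 without these 2 libraries and 0.90 ± 0.15 in the 10-library set-term fit (limma adjusted p = 0.0088).

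Rab4a, a GTPase of endosome recycling that also takes part in glucose transporter traffic, had 5.06, 4.81 and 7.19 RPKM in control 1 to 3 and 9.33, 9.75, 7.90 and 8.27 RPKM in diabetic 1 to 4. In the second set it had 8.32, 9.19 and 6.61 RPKM in control and 13.8 and 16.7 RPKM in diabetic libraries. Within each set the diabetic libraries were above the controls, with all libraries kept, as held for 0.0969% of tested genes. The log2 difference was 0.62 ± 0.23 over the 12 libraries (limma adjusted p = 1.0), 0.66 ± 0.26 without control 3 and diabetic 2, and 0.81 ± 0.13 in the 10-library set-term fit (adjusted p = 0.0088). Synm, an intermediate filament protein of the muscle Z-disc, and Rasd2 rose by 0.75 ± 0.15 and 1.53 ± 0.32 in that fit (limma adjusted p = 0.041 and 0.047).

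Genes of fatty acid oxidation and targets of PPAR receptors had 23 of 28 positive values over the 12 libraries, with a median of 0.12. The heart-type fatty acid binding protein gene Fabp3 had 0.86 ± 0.37 and Cpt1b, the muscle carnitine palmitoyltransferase, 0.50 ± 0.28. Both share many 31-base words with other genes (50.1% and 79.7%), and neither passed. Myl2, a slow myosin light chain, ran from 3.03 to 79.1 RPKM in control and from 4.04 to 166 RPKM in diabetic muscle, a log2 difference of 1.39 ± 0.79 that did not pass. Genes of embryonic and regenerating muscle had 10 of 20 positive and a median of 0.00, and within the sets the medians were 0.22 and -0.26. Myog ran from 37.8 to 276 RPKM in control and from 46.2 to 176 RPKM in diabetic muscle, with overlapping groups.

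Several genes of myeloid cells fell in diabetic muscle in the 10-library set-term fit, and Clec4d also did with the 2 libraries left out and no set term. Clec4d, a lectin receptor of neutrophils and inflammatory macrophages, had 6.55, 9.04 and 1.0 RPKM in control 1 to 3 and 1.5, 0.442, 2.71 and 2.23 RPKM in diabetic 1 to 4. In the second set it had 6.52, 7.44 and 8.25 RPKM in control and 1.34 and 2.21 RPKM in diabetic libraries. Apart from control 3, every control library was above 6 RPKM and no diabetic library reached 3. The log2 difference was -1.54 ± 0.37 over the 12 libraries (limma adjusted p = 0.66), -1.21 and -1.82 within the sets, -1.71 ± 0.24 without the 2 libraries (adjusted p = 0.0047), and -1.74 ± 0.24 in the 10-library set-term fit (adjusted p = 0.0034).

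Mmp9, a gelatinase carried by neutrophils, had 15.3, 25.4 and 0.864 RPKM in control 1 to 3 and 3.02, 0.904, 6.30 and 5.68 RPKM in diabetic 1 to 4, with 3.73, 15.3 and 5.24 against 2.09 and 1.15 RPKM in the second set. It fell by 1.87 on the log2 scale in the 10-library set-term fit (standard error 0.30, limma adjusted p = 0.0088). Arg1, arginase of alternatively activated macrophages, had 23.4, 25.5 and 0.10 RPKM in control 1 to 3 and 1.52, 0.00, 10.1 and 6.50 RPKM in diabetic 1 to 4. It fell by 1.81 and Cxcl5, a neutrophil chemokine, by 1.25 in the same fit (limma adjusted p = 0.034 and 0.015). Lyve1, a marker of lymphatic vessels and resident macrophages, had non-overlapping groups in each set with all libraries kept. The same held for 0.202% of tested genes in the lower direction. Lyve1 fell by 1.20 in the 10-library set-term fit (limma adjusted p = 0.034).

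The lists of these cells show how far the pattern went. Of 18 genes of neutrophil and myeloid recruitment 9 were tested, with 3 positive and a median of -0.90 over the 12 libraries, -0.21 and -1.29 within the sets, -1.14 without the 2 libraries with 1 called lower, and -1.0 in the 10-library set-term fit with 2 called lower. The 22 tested chemokines and receptors had a median of -0.24 with 5 positive, -0.07 and -0.74 within the sets, and the monocyte attractant gene Ccl2 had -1.03 ± 0.58, Ccl9 -0.71 ± 0.36 and the receptor gene C5ar1 -0.61 ± 0.34. General macrophage markers had 9 of 19 positive and a median of -0.05 over the 12 libraries. Their levels summed to 694 to 2728 RPKM in control libraries and 893 to 2438 RPKM in diabetic libraries, lowest in control 3 and diabetic 2. In the 10-library set-term fit 4 of these markers were positive, with a median of -0.36 beside -0.15 for all genes, and 1 was called lower. The chemokine list there had 3 positive, a median of -0.52 and 1 called lower. Of its members 9 were lower at an unadjusted p under 0.05, as 15.0% of all tested genes were. Genes of phagocytic and lipid-handling macrophages did not share the fall, with 11 of 20 positive and a median of 0.06 over the 12 libraries. Their medians were 0.19 and -0.12 within the sets. In the 10-library set-term fit 9 were positive with a median of -0.09, and 2 were higher and 1 lower at an unadjusted p under 0.05, as 2.72% and 15.0% of all tested genes were. Over the 12 libraries Lcn2 and Cd5l, secreted proteins of neutrophils and macrophages, had positive values of 1.07 ± 0.44 and 1.35 ± 0.37. Serpina3n, an acute phase protease inhibitor, had 1.20 ± 0.41 over the 12 libraries and 1.41 and 0.53 within the sets, and none of these passed.

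Matrix and cell cycle genes had negative values almost throughout, but no listed member passed over the 12 libraries, within a set, without control 3 and diabetic 2, or in the 10-library set-term fit. None of the 32 genes of matrix, crosslinking and matricellular proteins was positive over the 12 libraries, with a median of -0.46, and there no member reached an unadjusted p under 0.05. Within the first and second set the medians were -0.50 and -0.68. At that level 1 and 10 members were lower, as 0.444% and 9.97% of all tested genes were. In the 10-library set-term fit the median was -0.65 and 13 were lower at that level, as 15.0% of all tested genes were. Tenascin C (Tnc), a matrix protein of injured tissue, ran from 14.4 to 227 RPKM with a median of 79.6 in control and from 13.8 to 112 RPKM with a median of 29.2 in diabetic muscle. The lowest value of each group came from control 3 and diabetic 2. Its log2 difference was -1.02 ± 0.64 over the 12 libraries, -1.21 ± 0.62 without the 2 libraries, and -1.55 ± 0.48 in the 10-library set-term fit (limma adjusted p = 0.15).

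Ltbp2, a microfibril protein from the TGF-beta list, fell by 0.91 in that fit (limma adjusted p = 0.034). The gelatinase gene Mmp2 had -0.63 ± 0.34 and the collagen-crosslinking enzyme gene Plod2 -0.71 ± 0.39 over the 12 libraries. Collagens had 2 of 18 positive with a median of -0.21 over the 12 libraries, and -0.48 with 0 positive in the 10-library set-term fit. Tendon and cartilage genes had 0 of 11 positive over the 12 libraries, with a median of -0.22. The lubricin gene Prg4 among them had -0.89 ± 0.37. Of 32 tested cell cycle genes 1 was positive over the 12 libraries (median -0.26) and 1 without the 2 libraries (median -0.31), where 1 was lower at an unadjusted p under 0.05. In the 10-library set-term fit 0 were positive (median -0.55), and 25 were lower at an unadjusted p under 0.05, as 15.0% of all tested genes were. Hmmr and Cenpl, genes of the mitotic spindle and the centromere outside that list, fell by 0.76 ± 0.15 and 0.74 ± 0.15 there (limma adjusted p = 0.034 and 0.046). The mitotic kinase gene Aurka (-0.65 ± 0.15) and the midzone protein gene Prc1 (-0.79 ± 0.22) did not pass.

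**Figure D5:**
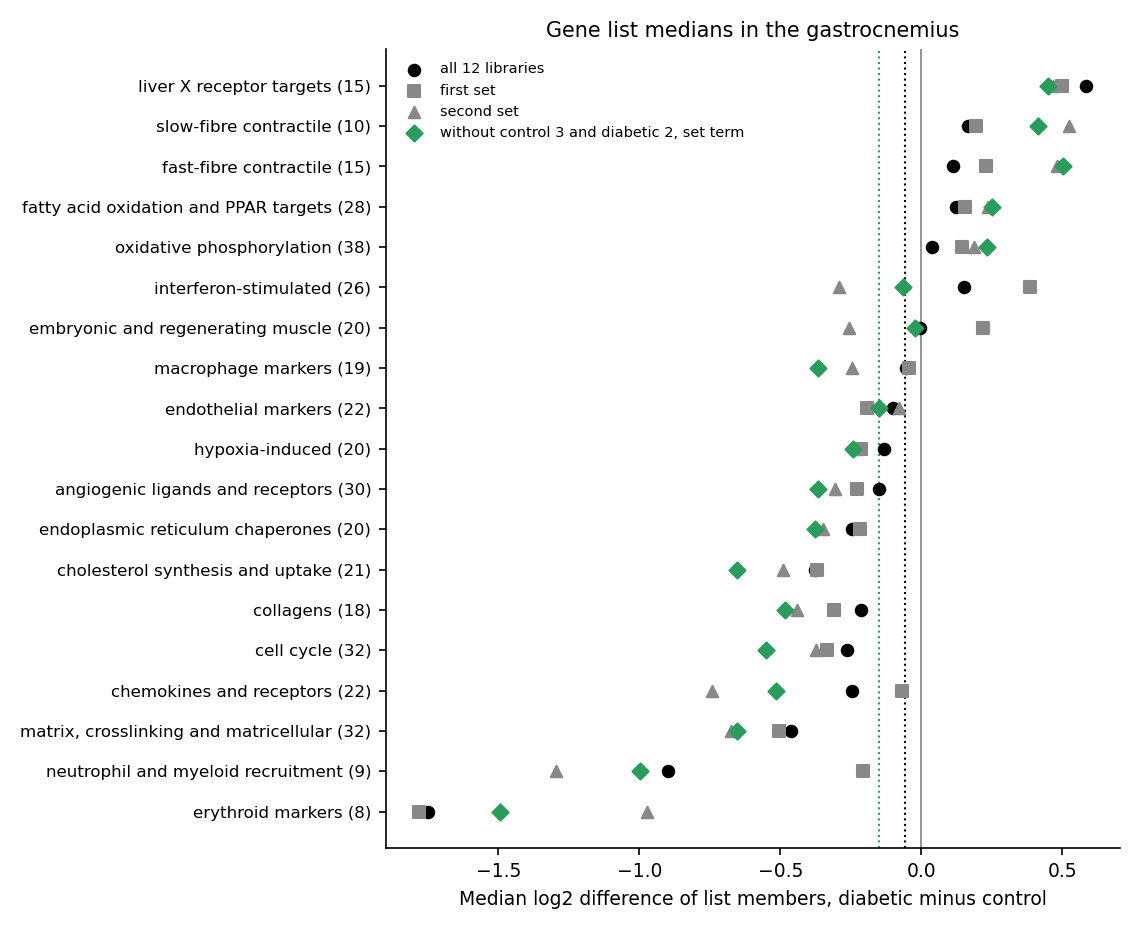
Median log2 difference, diabetic minus control, of the tested members of 19 gene lists, with the number of members in brackets. Circles stand for all 12 libraries, grey squares and triangles for the first and second set, and diamonds for the fit without control 3 and diabetic 2 with a term for the set, while dotted lines give the medians of all genes, -0.06 (black) and -0.15 (green). Liver X receptor targets lie right of 0 in every fit, and cholesterol, matrix, cell cycle and erythroid genes lie left of 0.

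Genes of vessel growth and of the hypoxic response had mostly negative values. Capillary growth in ischemic muscle is driven by vascular endothelial growth factors and shaped by apelin and angiopoietins. Of 30 tested angiogenic ligands and receptors 8 were positive over the 12 libraries (median -0.15, within the sets -0.23 and -0.31), and without control 3 and diabetic 2 the median was again -0.15, with 2 lower at an unadjusted p under 0.05. In the 10-library set-term fit 12 were lower, as 15.0% of all tested genes were (median -0.37 beside -0.15 for all genes). Apln, the apelin ligand of sprouting endothelium, had 11.0, 9.89 and 3.01 RPKM in control 1 to 3 and 3.47, 2.55, 6.62 and 7.00 RPKM in diabetic 1 to 4, with 10.6, 8.99 and 7.04 against 5.03 and 4.14 RPKM in the second set. Its log2 difference was -0.72 ± 0.32 over the 12 libraries and -0.87 ± 0.30 in the 10-library set-term fit, and neither passed.

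Angpt2, the angiopoietin that loosens vessels, had -0.48 ± 0.22, and Figf, a vascular endothelial growth factor of lymphatic and blood vessels, had -0.37 ± 0.18. The gap junction gene Gja5 of arterial endothelium fell by 0.95 in the 10-library set-term fit (standard error 0.19, limma adjusted p = 0.046). Endothelial markers had 4 of 22 positive with a median of -0.10 beside -0.06 for all genes, and summed to between 305 and 436 RPKM (control) and between 318 and 398 RPKM (diabetic). Of 20 hypoxia-induced genes 5 were positive over the 12 libraries (median -0.13), with 2 lower at an unadjusted p under 0.05. In the 10-library set-term fit 4 were positive (median -0.24) and 8 were lower at that level, as 15.0% of all tested genes were. Over the 12 libraries Ankrd37 had -0.54 ± 0.21, the collagen prolyl hydroxylase gene P4ha2 -0.45 ± 0.20 and the heme oxygenase gene Hmox1 -0.99 ± 0.50. None of these 3 passed, and 21% of the words of Ankrd37 occur in another gene.

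Transcripts of red cells had the most negative median of the lists over the 12 libraries, at -1.75 with 1 of 8 tested genes positive, and -1.78 and -0.97 within the sets. Hbb-b1, a beta globin gene, ran from 42.4 to 261 RPKM with a median of 91.0 in control and from 9.09 to 67.9 RPKM with a median of 17.8 in diabetic muscle. The groups did not overlap within either set, as in 0.202% of tested genes in the lower direction. Of the 6 diabetic libraries 4 were below every control library. The log2 difference was -2.23 ± 0.55 (limma adjusted p = 0.66). Beta globin genes are near-identical copies at 1 locus and share reads. Alas2, the erythroid enzyme of heme synthesis, did not overlap between groups, with a range of 1.09 to 2.97 RPKM (control) and of 0.143 to 1.02 RPKM (diabetic), and had -1.32 ± 0.29 (limma adjusted p = 0.35). In the adductor the list's median was -1.27, again with 1 of 8 positive. There 3 members were lower at an unadjusted p under 0.05, as 0.743% of all tested genes were.

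Immediate early genes, which respond within minutes to stimulation or handling of tissue, had 3 of 22 positive (median -0.30). Fos ran from 2.99 to 22.1 RPKM in control and from 1.55 to 7.31 RPKM in diabetic muscle, with a log2 difference of -1.92 in the first set and -0.22 in the second. Ier3 had -0.95 ± 0.31 and Egr2 -0.70 ± 0.31 over the 12 libraries, and neither passed. Interferon-stimulated genes had opposite signs in the sets, with 24 of 26 positive and a median of 0.39 in the first and 2 positive with a median of -0.29 in the second, and the difference of the list was not tested. Genes of insulin signalling and glucose transport (7 of 17 positive, median -0.03) lay close to the median of all genes, with no member at an unadjusted p under 0.05 over the 12 libraries.

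Other genes called in the 10-library set-term fit belonged to no list described here. Kctd11, an adaptor of ubiquitin ligases, fell by 1.05, Bst1, a cell surface enzyme of stromal and myeloid cells, by 0.88, and Lrrcc1, a centrosomal protein, by 0.84 on the log2 scale (limma adjusted p = 0.046, 0.048 and 0.034). Zfp932, a zinc finger gene, fell by 0.76 (limma adjusted p = 0.046), and 48.3% of its words occur in another gene.

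The diabetes effect was set beside that in the adductor by testing the difference of both effects, and neither limma nor voom made a call (0 genes). In limma 154 genes had an unadjusted p under 0.05, 1.24% of those tested. That fit took the libraries of both muscles as independent. With mouse group and number as a random block 475 genes had an unadjusted p under 0.05, again with 0 calls. Same-numbered libraries of the 2 muscles correlated at 0.25 to 0.74 within the groups. These correlations still hold the difference between the sets, so they cannot show whether the numbers pair the muscles. Nnt had a log2 difference of 2.54 ± 0.23 in the adductor and 1.38 ± 0.23 in the gastrocnemius, a difference of -1.16 ± 0.32. Igfn1, a muscle gene of immunoglobulin and fibronectin domains, had 1.90 ± 0.44 in the adductor and -0.44 ± 0.44 in the gastrocnemius. Figf had 0.66 ± 0.18 and -0.37 ± 0.18 in the same order. Apoc1 had -0.13 ± 0.43 in the adductor against 1.95 ± 0.43, and Cyp51 0.22 ± 0.22 against -0.85 ± 0.22, and none of these differences passed the adjusted test.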

How the data were processed

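Poly(A) RNA of 12 gastrocnemius libraries was compared, with 12 adductor libraries sharing the estimate of the spread. Per the file headers, the authors deposited RPKM per RefSeq transcript over exons, scaled to the library total, with no strand option. TopHat, HOMER and mm9 are named per the submitters' processing notes, without versions. Multiplied back by length and total, 99.97% of the values above 0 gave whole reads within 0.01, which voom used. Totals ran from 7.13 to 15.6 M reads. A floor of 3 reads at 1 kb was between 0.192 and 0.421 RPKM over these libraries, for counting error only.

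Per symbol the transcript with the highest mean was kept, and 12382 genes with at least 1 RPKM in at least 6 of the 24 libraries were tested. A pseudocount of 0.5 was added, so log2 differences understate changes of low genes. Limma 3.58.1 in R 4.3.3 fitted group means with an intensity trend. Benjamini-Hochberg adjusted p was called at 0.05. Within-set fits used the libraries of 1 set. The fit was also run on simulated data, with independent normal spread around the fitted means. These data held no library that stood apart and, for the fit without a set term, no difference between the sets. They therefore did not test the calls that depend on these features. Named genes were those called over the 12 libraries, the 12 smallest p of the fit with a set term, up to 3 of each list by p, in each set up to 4 called each way (group mean 2 RPKM or more), and the 3 smallest p of each difference of effects. Genes called only with control 3 and diabetic 2 left out and a set term added, and Actn3, Cd68, Ckm, Gapdh, Insig1, Mybpc2, Myog, Tnc and Trem2, were singled out after their values were seen. Some members of the cholesterol list are not reported here. The comparison, lists and alternatives were chosen with earlier results of these data known. Library sets were told apart by Gapdh, not by labels. The share of 31-base words was counted over GENCODE transcripts of another build. Promoters come from RefSeq, GRCm38.p6. Alternatives were other scalings, pseudocounts, filters, tools, blocks and left-out libraries.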

Additional observations from a re-analysis of the deposited data

Results flagged for a closer look

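In groups of 6, a library counts as far from the others when its gap to the nearest is a larger share of the group's range than Dixon's critical value, and chance marks about 1 in 20 groups. Most of the values marked came from control 3 and diabetic 2. Mybpc2, Actn3 and Myog had been singled out after their values were seen, so their marks give no separate support. Control 3 had the highest control value of Mybpc2 (765 RPKM), Actn3 (1563 RPKM), Synm (88.8 RPKM), Rasd2 (19.2 RPKM) and Ostn (42.4 RPKM), and the lowest of Clec4d (1.0 RPKM, next 6.52). Diabetic 2 had the highest diabetic value of Mybpc2 (871 RPKM), Actn3 (2025 RPKM), Rasd2 (37.0 RPKM) and Cpt1b (80.1 RPKM), and the lowest of Myog (46.2 RPKM, next 138). Nnt was lowest in control 5, at 4.72 RPKM against 7.22 to 8.52 in the other control libraries.

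The diabetes effect differed between the library sets for Rps27 (4.02 on the log2 scale, second minus first) and for Gm6787 (-2.02), both called by limma's test of that difference.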

How the results depend on the processing

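Over the 12 libraries the count of called genes was 1. It was 0 with the gastrocnemius libraries alone and with a term for the set, 2 with a pseudocount of 1, with quantile normalization and with median-of-ratios scaling plus a term for the set, and 4 with no filter on low values. It ran from 0 to 3 when 1 library was left out. Without control 3 and diabetic 2 and with a term for the set it was 24, 19 with median-of-ratios scaling and 37 by voom, and with 1 more library left out it was 13, 3, 14, 9 and 8 (without control 1, 2, 4, 5 and 6) and 13, 23, 59, 14 and 4 (without diabetic 1, 3, 4, 5 and 6). In the first set 0 genes became 8 with no filter and 1 without those 2 libraries. In the second set 27 became 0 with the gastrocnemius libraries alone, 80 with no filter, 16 with a pseudocount of 0.1, 11 by voom, and 7 to 91 with 1 library left out. Median-of-ratios scaling gave 29 higher and 5 lower there. For the difference between the sets 8 became 28 with no filter, 0 by voom, 13 without the 2 libraries, and 0 to 33 with 1 left out. The difference between muscles stayed at 0 under each alternative run.

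With the replicate number as a block the count was 0, with 131 genes at an unadjusted p under 0.05, and with mouse group and number as a random block 1. Same-numbered control and diabetic libraries correlated at -0.66 to 0.82 over 6 numbers. The lowest value was that of number 4, which is in the second set for control and in the first for diabetic. By the sex-linked genes, each number had the same sex in both groups. These correlations still hold the difference between the sets, so they cannot show whether the numbers pair the libraries.

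Of 69 genes followed through the alternatives, 3 changed sign. Leaving out 1 library gave Fdps -0.62 to 0.10 (positive without diabetic 5), Mybpc2 -0.067 to 0.90 (negative without diabetic 2) and Myog -0.44 to 0.22. With a term for the set Myog was 0.056, by voom 0.063, and with median-of-ratios scaling as well 0.17. With control 3 and diabetic 2 left out as well it was 0.067 under that scaling, 0.028 without control 6 and 0.020 without diabetic 5. The causes were not tested. Depth limits genes near the floor of 3 reads, such as Gm6787.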
